A study of Homo sapiens with 6 samples.

Results

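BANF1 encodes BAF (barrier-to-autointegration factor), a small dimeric protein that bridges DNA and ties chromatin to the nuclear envelope. Its transcript was followed here with those of 9 genes that work beside it at the inner nuclear membrane: the kinase VRK1, the LEM-domain genes EMD, TMPO, LEMD2 and LEMD3, the lamins LMNA, LMNB1 and LMNB2, and the lamin B receptor LBR. The 10 genes were chosen by symbol out of 35615 symbols in the table. BANF1 itself was selected on its higher level with the mimic in this same comparison, so its difference is given as a description with no test, and those of the other 9 genes, picked by their role at the envelope with results of this comparison in view, likewise. All 10 were among the 14543 genes with enough counts to be tested.

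The cells were K562, a human erythroleukaemia line from chronic myeloid leukaemia that carries the BCR-ABL1 fusion kinase. The first group (miR92a, 3 libraries) received hsa-miR-92a-1-5p as a synthetic mimic by nucleofection, 500 pmol per culture, and the second (scramble, 3 libraries) the same supplier's negative-control mimic. All 6 cultures of 5 M cells received 1 µM imatinib, an ABL1, KIT and PDGFR kinase inhibitor, starting 4 h after the nucleofection and lasting 24 h before RNA extraction, so the control cultures carry the drug as well. The series title asks which genes go down with the microRNA, and the libraries are labelled as biological replicates of 1 cell line. Whether the replicates came from separate cultures beyond that label is not stated, so the errors cover the spread between these libraries.

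When a cell divides, the nuclear envelope is taken apart and rebuilt. VRK1 phosphorylates BAF at mitotic entry, which releases it from chromatin and from its partners. At mitotic exit protein phosphatase 2A, guided by the LEM protein ANKLE2, removes the phosphate, and BAF then coats the chromosomes, holds them together as 1 mass and recruits membranes through proteins with a LEM domain. Lamins form the filament meshwork under the membrane, and LBR tethers B-type lamins and heterochromatin to it. Emerin (EMD) is the LEM protein lost in X-linked Emery-Dreifuss muscular dystrophy, and mutations of BANF1 and LMNA cause progeroid syndromes.

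The microRNA introduced and its partner strand are shown because the seed, bases 2 to 8 (capitals), decides which transcripts a microRNA can pair with. Both mature strands come from the MIR92A1 hairpin (RefSeq, GRCh38.p14, plus strand, chr13:91351324-91351346 and chr13:91351361-91351382), and the seeds differ.
hsa-miR-92a-1-5p: aGGUUGGGaucgguugcaaugcu
hsa-miR-92a-3p: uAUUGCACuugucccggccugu
The transcript letters that pair with the 5p seed are CCCAACC, extended to CCCAACCA in an 8mer and shortened to CCAACC in a 6mer. None of the 10 genes held even the 6mer in its longest annotated 3′ UTR (GENCODE v29). Of the 12885 tested genes with such a UTR, 27.1% held at least the 6mer and 16.9% held a 7mer or 8mer. The BANF1 3′ UTR is short, at 377 bases against a median of 1327 bases, those of EMD (326 bases) and VRK1 (405 bases) are short as well, and those of TMPO (2521 bases) and LMNB2 (2745 bases) are long. The 6mer was also absent from the 3′ UTRs of all 4 coding BANF1 transcripts. The absence says only that these letters are not in these annotated UTRs. The transcript forms that K562 cells use were not analysed here.

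The libraries ranged in total from 24.8 to 26.0 M counts, apart from miR92a 1 with 0.704 M. Levels are given as CPM, counts scaled to library size with TMM factors, and a count of 3 stood for 4.08 CPM in miR92a 1 and for 0.115 to 0.125 CPM elsewhere. BANF1 still had 106 counts in that library, a counting error of 9.71%, against 1.53% to 2.85% in the others. The mimic strand itself is not measured by this gene table, so the labels could not be checked on it. The erythroid identity markers summed to 9205 to 18219 CPM in the miR92a libraries and 11745 to 19412 CPM in the scramble libraries, with all 10 detected. The labels call the cells myeloblasts. Of 10 markers of myeloblasts, granulocytes and monocytes MPO was at 0 in every library. LYZ was detected in every library at 10.2 to 57.9 CPM, and CSF3R at 1.36 to 4.95 CPM. The sum of the 10, with LYZ as its largest part, was 20.04 to 49.1 CPM with the mimic and 37.0 to 65.8 CPM in the controls. Of 10 genes listed as markers of lymphoid, endothelial, epithelial and fibroblast cells MS4A1 was at 0 in every library. Their sum was 323 to 502 CPM with the mimic and 371 to 418 CPM in the controls. It came mostly from PTPRC and EPCAM and is not read as a sign of other cell types. In such bulk RNA, a change in the share of cells that carry a transcript and a change in RNA per cell cannot be told apart, and the part of these markers in the results was not tested. The replicate 3 libraries stood apart in both groups. The embryonic globin HBE1 was at 6682 CPM in miR92a 3 and 6260 CPM in scramble 3, and at 2547 to 3176 CPM in the other libraries. Calls made with the replicate number as a block are therefore set beside the same fit without the replicate 1 pair and without the replicate 3 pair. Each of those fits has 2 libraries per group and few degrees of freedom left for its error. Their SE and adjusted p are thus less secure than with all pairs. A blocked fit without the replicate 2 pair was not made, so passing in all 3 blocked fits is a limited check.

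BANF1 had 144, 151 and 171 CPM in miR92a 1, 2 and 3, against 63.0, 63.3 and 51.2 CPM in scramble 1, 2 and 3. The lowest mimic library was well above the highest control library, and the spread within each group was small beside the gap. The means were 156 ± 14.0 CPM with the mimic and 59.2 ± 6.92 CPM in the controls (SD, n = 3 each), a 2.65-fold difference or a log2 fold change of 1.41 ± 0.12 (SE). Only 27 of the 14543 tested genes had a higher log2 fold change, and this place is what chose the gene. Within same-numbered pairs of libraries the log2 difference was 1.19, 1.26 and 1.74 for replicates 1, 2 and 3. The third pair gave the widest gap: its mimic library was the highest and its control library the lowest of the 6. With the replicate number as a block and without the third pair, the log2 fold change was 1.24 ± 0.09 (SE, 2 libraries per group). That fit leaves few degrees of freedom for its error, so its smaller SE is no sign of higher precision.

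**Figure D1:**
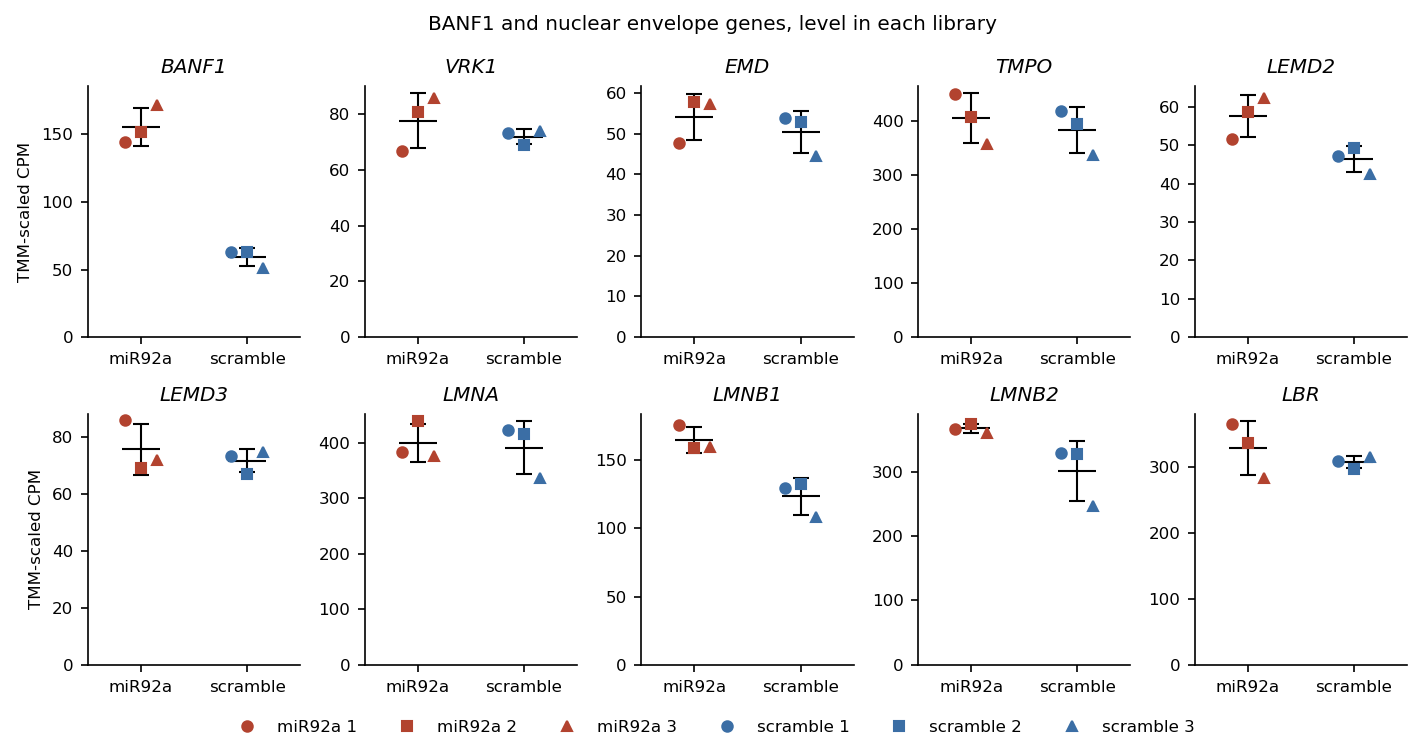
CPM with TMM scaling (y axis, from 0) of the 10 genes in each library, with miR92a in red and scramble in blue, the replicate number given by the marker, and bars for the mean and SD of 3 libraries. BANF1 lies at 144 to 171 CPM with the mimic and at 51.2 to 63.3 CPM in the controls, while the groups overlap for VRK1, EMD, TMPO, LEMD3, LMNA and LBR.

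VRK1, the kinase that releases BAF from chromatin, had 66.7, 80.7 and 85.7 CPM in miR92a 1, 2 and 3, against 73.1, 68.8 and 74.0 CPM in scramble 1, 2 and 3. The groups overlapped, with the low-depth library miR92a 1 the lowest of all 6. Its log2 fold change was 0.15 ± 0.11 (SE). In counts, the order of BANF1 and VRK1 differed between the groups: BANF1 had 2.16, 1.88 and 2.00 times the VRK1 count in the mimic libraries, against 0.863, 0.921 and 0.692 times in the control libraries. This ratio is formed within a library, so it does not depend on scaling between libraries, but it is of raw counts and not per length. Its precision does depend on depth. In miR92a 1 it rested on 106 BANF1 and 49 VRK1 counts, with counting errors of 9.71% and 14.3%.

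The LEM-domain genes encode the membrane and nucleoplasmic partners that BAF recruits. EMD, which encodes emerin, had 47.6, 57.7 and 57.2 CPM with the mimic and 53.8, 52.9 and 44.4 CPM in the controls, in the order of the replicates. The groups overlapped and the pairs disagreed in sign, with log2 differences of -0.18, 0.12 and 0.36. TMPO, which encodes the LAP2 (lamina-associated polypeptide) isoforms, was the most abundant of the 4 in CPM, at 405 ± 46.1 with the mimic and 383 ± 41.7 in the controls, a log2 fold change of 0.07 ± 0.12 (SE). LEMD3, which encodes the SMAD-binding membrane protein MAN1, had the smallest difference of the 4 at 0.04 ± 0.11, with 75.5 ± 8.95 CPM with the mimic and 71.6 ± 4.09 CPM in the controls.

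LEMD2, which recruits the ESCRT-III factor CHMP7 to seal the reforming envelope, was the LEM gene with separate groups. It had 51.7, 58.6 and 62.4 CPM in miR92a 1, 2 and 3, against 47.1, 49.2 and 42.6 CPM in scramble 1, 2 and 3. The lowest mimic value rested on 38 counts in the low-depth library, a counting error of 16.2%, which is larger than its gap to the highest control value. The log2 fold change was 0.34 ± 0.11 (SE), and 0.29 without scramble 3.

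Among the lamins, the B-type genes had larger differences than LMNA. LMNA, which encodes lamins A and C, had 382, 439 and 376 CPM in miR92a 1, 2 and 3, against 422, 416 and 336 CPM in scramble 1, 2 and 3, with overlapping groups and a log2 fold change of 0.03 ± 0.11 (SE). LMNB1, the lamin B1 gene, had 176, 159 and 159 CPM with the mimic and 129, 132 and 108 CPM in the controls, in replicate order. All 3 mimic libraries were above all 3 control libraries, and the log2 fold change was 0.40 ± 0.11. LMNB2, the lamin B2 gene, had 366, 374 and 360 CPM with the mimic and 329, 327 and 247 CPM in the controls. Its mimic libraries lay close together, while scramble 3 was far under the other controls. The LMNB2 log2 fold change of 0.29 ± 0.12 was 0.16 without scramble 3, and that of LMNB1 was 0.31.

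The share of B-type lamin within each library was also higher with the mimic. LMNB1 counts were 0.459, 0.361 and 0.423 times the LMNA counts in miR92a 1, 2 and 3, against 0.306, 0.319 and 0.322 times in scramble 1, 2 and 3. The highest of these, in miR92a 1, rested on 129 LMNB1 and 281 LMNA counts. LMNB2 counts were 0.922 ± 0.0607 times those of LMNA with the mimic and 0.767 ± 0.0280 times in the controls (SD, n = 3 each). Neither ratio overlapped between the groups. LMNB1 and LMNB2 already had separate groups in CPM, and how often ratios of other genes separate was not computed. Scramble 3, which was low for all 3 lamins in CPM, did not stand apart on the LMNB1 ratio. On the LMNB2 ratio it was the lowest, at 0.735 against 0.779 and 0.787 in scramble 1 and 2.

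LBR, the lamin B receptor, which is also a sterol reductase, had 365, 336 and 283 CPM in miR92a 1, 2 and 3, against 308, 296 and 314 CPM in scramble 1, 2 and 3. The groups overlapped, and the third pair went the other way, at -0.15 on the log2 scale against 0.24 and 0.18. Its log2 fold change over all libraries was 0.09 ± 0.10 (SE).

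**Figure D2:**
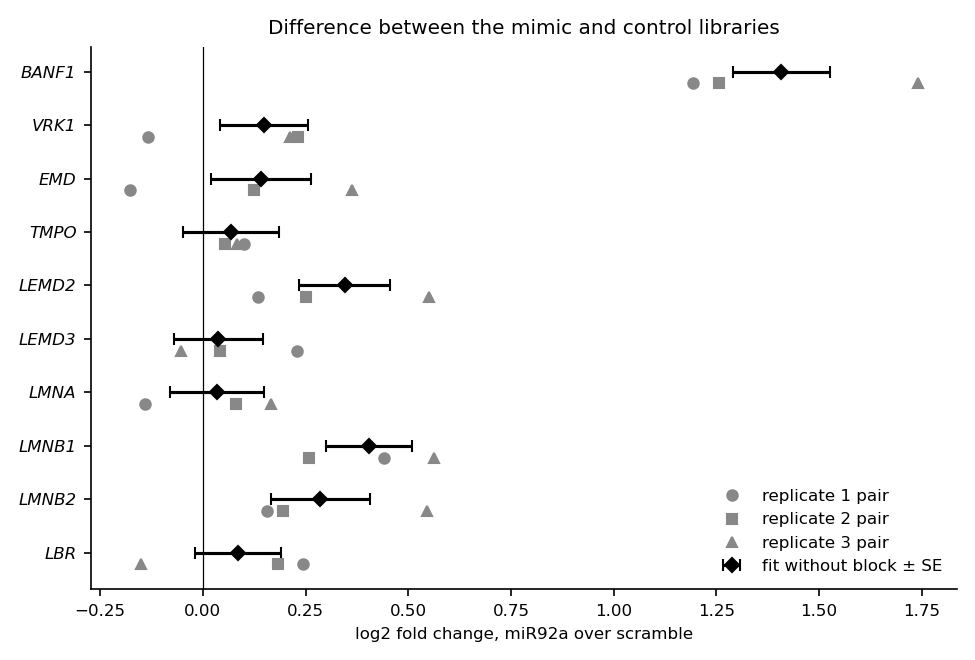
Log2 fold change of the 10 genes, miR92a over scramble (x axis), from the fit over all 6 libraries with its standard error (diamonds) and within each same-numbered pair of libraries (grey markers). BANF1 stands at 1.41 with pairs from 1.19 to 1.74, and the next highest value in any pair is 0.56, for LMNB1 in the replicate 3 pair.

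Counted by the threshold of an adjusted p under 0.05 (edgeR quasi-likelihood test, Benjamini-Hochberg over all tested genes), 1 of the 10 genes was called, BANF1, where 1.41% of all tested genes were called in either direction and 0.433% as higher. Nothing is read from this count, since the call is how BANF1 was found. With the replicate number as a block BANF1 passed again, which adds nothing to its choice. Of the 9 other genes 3 passed as higher, LMNB1, LMNB2 and LEMD2. Of all tested genes 4.57% passed as higher and 11.3% in either direction. The 10 genes lay above 69.2% to 98% of tested genes in mean CPM, and the shares over all tested genes were not matched for level. BANF1 and LMNB1 also passed without either pair, LMNB2 was lost without the replicate 3 pair (edgeR adjusted p = 0.086), and LEMD2 was lost without the replicate 1 pair (0.052) and without the replicate 3 pair (0.21), where LBR passed. The same 3 of the 9 other genes, and BANF1, had all mimic libraries above all control libraries. This arrangement was shown by 9.73% of tested genes in that direction and by 21.2% in either. All 10 log2 fold changes were above 0, with a median of 0.15 (0.14 for the 9 genes other than BANF1), against a median of -0.01 over all tested genes, of which 48.3% were above 0. Without scramble 3 or without miR92a 1 this held for 8 of the 10.

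Ratios within single libraries describe the gap between BANF1 and its partners. BANF1 was chosen on its higher level with the mimic, so these ratios restate that choice and are no further support. BANF1 counts were 0.156, 0.156 and 0.191 times the summed counts of the 3 lamins in miR92a 1, 2 and 3, against 0.0717, 0.0723 and 0.0742 times in scramble 1, 2 and 3. The control libraries agreed closely, scramble 3 included. Against the 4 LEM-domain genes together the ratio was 0.265 ± 0.0432 with the mimic and 0.107 ± 0.00504 in the controls (SD, n = 3 each).

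**Figure D3:**
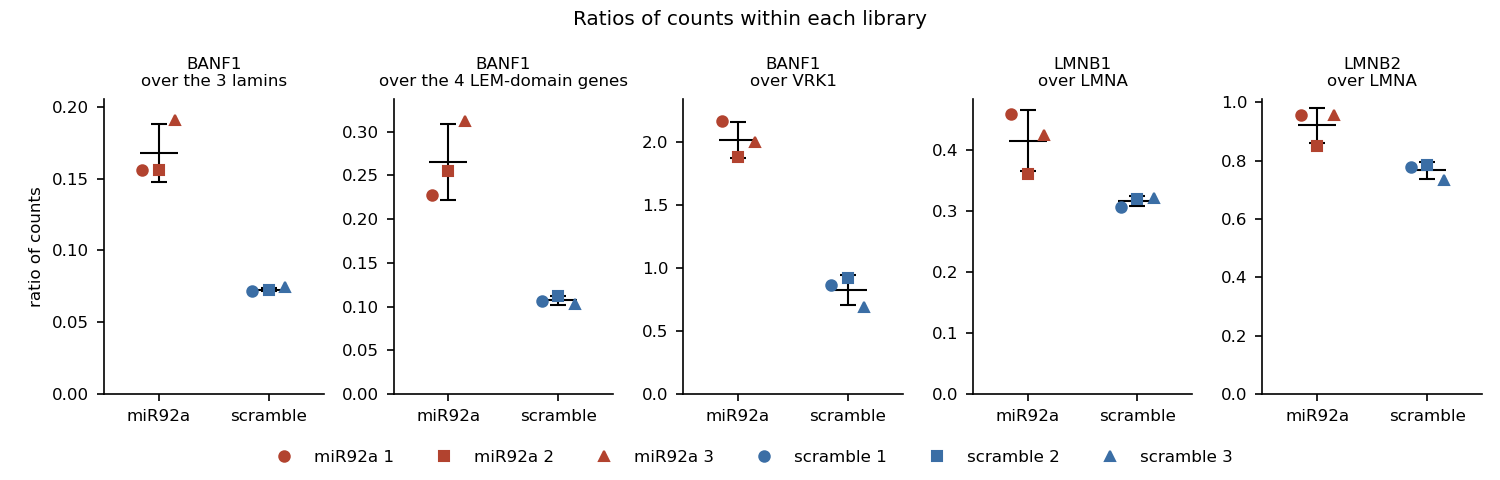
Ratios of raw counts within each library (y axes, from 0; red, miR92a; blue, scramble; bars, mean and SD of 3 libraries). All 5 ratios, of BANF1 to the lamins, the LEM-domain genes and VRK1 and of LMNB1 and LMNB2 to LMNA, are higher in every mimic library than in any control library. The ratios with BANF1 restate the difference on which that gene was chosen.

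Levels were compared between genes per length, as CPM per kb of each gene's longest coding transcript in GENCODE v29. With the mimic BANF1 was the highest of the 10 genes at 135 ± 12.1 CPM per kb, overlapping LMNA at 125 ± 10.9. In the controls it was the fifth at 51.2 ± 5.99, under LMNA (123 ± 15.1), TMPO (90.3 ± 9.84), LBR (80.4 ± 2.39) and LMNB2 (64.4 ± 10.0). Of these only LMNB2 had a library within the range of BANF1. LMNB1 (42.8 ± 4.64), VRK1 (41.2 ± 1.61) and EMD (36.6 ± 3.76) followed in the controls. LMNB1 overlapped VRK1 and EMD, while every VRK1 library was above every EMD library. LMNB1 also overlapped BANF1, with 44.9 and 46.0 in scramble 1 and 2 against 44.3 for BANF1 in scramble 3. LEMD2 and LEMD3 were the lowest in both groups, at 19.5 ± 1.83 and 15.9 ± 1.88 with the mimic and 15.6 ± 1.14 and 15.03 ± 0.859 in the controls.

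The 10 genes lie apart in the genome (GRCh38, GENCODE v29). VRK1 is at chr14:96797304-96931722, EMD at chrX:154379197-154381523, LEMD2 at chr6:33771202-33789136, and TMPO and LEMD3 share a chromosome at chr12:98515512-98550379 and chr12:65169571-65248327. LMNB1 is at chr5:126776623-126837020, LMNB2 at chr19:2427638-2456996, and LMNA and LBR share a chromosome at chr1:156082573-156140089 and chr1:225401502-225428925. BANF1 lies at chr11:66002079-66004149 on the plus strand, and its 5′ end overlaps that of EIF1AD on the other strand by 98 bases. The sources used here do not give the library strand, so reads in the overlap cannot be assigned. EIF1AD, a gene examined after the values were seen, had 53.0 ± 11.5 CPM with the mimic and 41.5 ± 2.87 CPM in the controls (SD, n = 3 each), a log2 fold change of 0.41 ± 0.15 (SE, edgeR adjusted p = 0.27) with overlapping groups; with the replicate block the adjusted p was 0.020. The neighbours CST6 and CATSPER1 had too few counts to be tested. The 5 processed copies BANF1P1 to BANF1P5 held 12 counts over all libraries, and TMPOP1 and TMPOP2 held 125, so few counts were assigned to these copies of BANF1 and TMPO. LMNB2 overlaps TIMM13 by 257 bases on the same strand, and TIMM13 had 58.4 ± 12.9 CPM with the mimic and 57.6 ± 6.03 CPM in the controls.

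The genes whose log2 CPM followed BANF1 most closely over the 6 libraries, among 7784 genes with a mean of at least 20 CPM, were GDI2 (Pearson's r = 0.999), a regulator of Rab GTPase recycling, the translation factor subunit EIF3B (0.998), the GTPase RAC1 (0.996), NSMF (0.994) and the kinase CSNK1A1 (0.994). These values describe 6 libraries of 2 groups and share the group difference, depth and scaling. The sizes of the differences varied widely among them, from 107 ± 1.22 with the mimic and 99.3 ± 1.01 CPM in the controls for CSNK1A1 to 99.7 ± 7.48 and 44.5 ± 6.15 CPM for NSMF. Among the other 9 genes LMNB1 (0.92), LEMD2 (0.91) and LMNB2 (0.81) followed BANF1 more closely than VRK1 (0.46), EMD (0.51), TMPO (0.30), LBR (0.26), LMNA (0.23) and LEMD3 (0.22).

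A wider set of nuclear envelope genes, listed by function, showed where the comparison reached elsewhere in the compartment. Of 107 listed genes 103 were tested, and 3 passed the threshold (2.91%, against 1.41% of all tested genes): 1 rose and 2 fell. Their median log2 fold change was 0.04, against -0.01 over all tested genes. The 3 belonged to 3 different lists, the phosphatases that act on BAF, the nucleoporins and the kinases of envelope disassembly. With the replicate block 14 rose and 10 fell, 23.3% of those tested against 11.3% of all genes. The shares over all genes set beside these lists were not matched for expression level. Without miR92a 2 or without scramble 2, NUP43 was the 1 gene that passed.

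PPP2R1B, the beta form of the scaffold subunit of protein phosphatase 2A, rose. It had 87.1, 88.9 and 78.8 CPM in miR92a 1, 2 and 3, against 51.1, 49.2 and 47.4 CPM in scramble 1, 2 and 3. Every mimic library was well above every control library, with a log2 fold change of 0.78 ± 0.10 (SE, edgeR adjusted p = 0.0076). It was the 1 called gene of 13 in the list of protein phosphatase 2A and 4 subunits, whose alpha scaffold PPP2R1A had 161 CPM with the mimic and 149 CPM in the controls and whose catalytic subunit PPP2CA had 142 and 126 CPM. With the block PPP4C, the catalytic subunit of protein phosphatase 4, rose (0.33 ± 0.10, edgeR adjusted p = 0.039) and its regulatory subunit PPP4R2 fell (-0.38 ± 0.10, adjusted p = 0.014). PPP4C was lost without the replicate 3 pair (0.17 ± 0.09) and PPP4R2 without either pair. The PPP2R1B call held in all 3 blocked fits, and without the block it was lost without miR92a 2 (adjusted p = 0.058) and without scramble 2 (0.057). PPP2R1B lies on chromosome 11, as BANF1 does, at 111726908 to 111766427.

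NUP43, a subunit of the Y complex that forms the outer rings of the nuclear pore, fell. It had 63.9, 59.7 and 63.3 CPM in miR92a 1, 2 and 3, against 118, 116 and 139 CPM in scramble 1, 2 and 3. The groups were far apart, and the log2 fold change was -1.004 ± 0.10 (SE, edgeR adjusted p = 0.0051). It passed with each library left out in turn (adjusted p from 0.0045 to 0.035). Of the 32 nucleoporins tested it was the 1 that passed, and their median log2 fold change was 0.06. With the block 4 nucleoporins rose, among them the inner-ring subunit NUP205 (0.37 ± 0.08) and NUP93 (0.37 ± 0.10), and 4 fell, NUP43, NUP54, POM121 and POM121C, or 8 of 32 where 11.3% of all tested genes passed. NUP43, NUP205 and POM121C passed in all 3 blocked fits. NUP93 was lost without the replicate 3 pair (0.20 ± 0.08, edgeR adjusted p = 0.14), NUP54, POM121 and NUP133 without the replicate 1 pair, and NUP37 without either. POM121 and POM121C are near-identical copies that share reads, so their split is uncertain.

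PRKCA, protein kinase C alpha, of a kinase family that phosphorylates B-type lamins, also fell. It had 72.1, 59.0 and 53.7 CPM in miR92a 1, 2 and 3, against 109, 101 and 91.2 CPM in scramble 1, 2 and 3, a log2 fold change of -0.76 ± 0.13 (SE, edgeR adjusted p = 0.027). The groups did not overlap, but the call was lost with library totals as the only scaling (0.052) and with each library left out except scramble 3 (0.051 to 0.13). Among the other envelope disassembly kinases the mitotic pair CDK1 and CCNB1 were higher with the mimic without passing. CDK1 had 231 ± 23.7 CPM with the mimic and 187 ± 18.3 CPM in the controls, and CCNB1 153 ± 14.7 and 113 ± 23.6 CPM. With the block 4 of the 9 rose (CDK1, CCNB1, CCNB2 and PLK1) and PRKCA and PRKCB fell, where 11.3% of all tested genes passed. CDK1 was lost without the replicate 1 pair (edgeR adjusted p = 0.086), and PLK1 without the replicate 3 pair, where its log2 fold change was 0.15 ± 0.08 (SE, edgeR adjusted p = 0.28) against 0.36 ± 0.11 with all pairs. The other 4 passed in all 3 of these fits. Genes named here from the blocked fit were chosen after their values were seen.

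**Figure D4:**
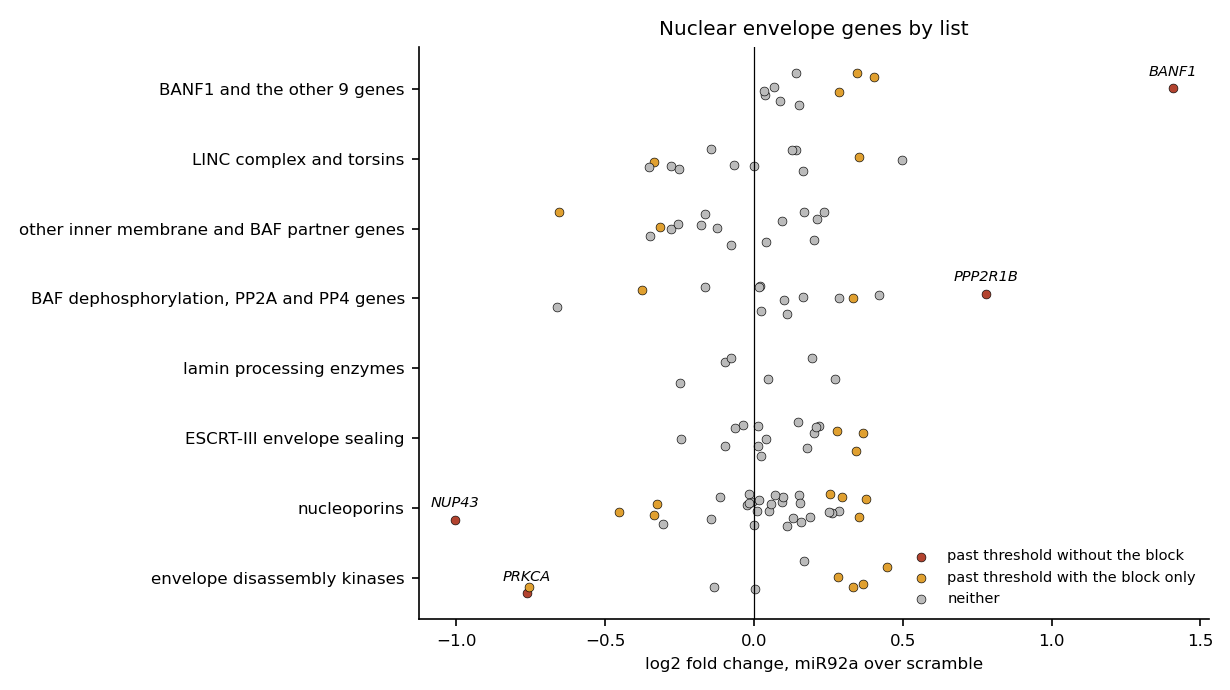
Log2 fold change, miR92a over scramble (x axis), of the 10 genes and of 103 further nuclear envelope genes by list, each point a gene, coloured by the fit in which its adjusted p was under 0.05. Without the block BANF1 and PPP2R1B lie on the higher side and NUP43 and PRKCA on the lower side; the vertical spread within a list has no meaning.

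The seed matches in the 3 called genes are shown because 2 of them fell, and in the same lists the matches can be compared with the direction. Capitals mark the match. PRKCA held 5p 8mers at chr17:66804398-66804405 and chr17:66804624-66804631 (plus strand). NUP43 held a 5p 7mer at chr6:149725827-149725833 (minus strand). It also held a 3p 8mer at chr6:149725977-149725984 and a 3p 7mer at chr6:149726358-149726364 (both minus strand), of which the 8mer is printed. PPP2R1B held no 5p or 3p 7mer or 8mer.
PRKCA first 5p match: cattggaatccCCCAACCAgagatgttaaa
PRKCA second 5p match: acaaatcctaaCCCAACCAtggtccagcag
NUP43 5p match: ctatagtgttaCCAACCAtctttatcctt
NUP43 3p match: aactggacattGTGCAATAaagtagaattc
Of the 10 listed genes that fell with the block 7 held a 5p 7mer or 8mer in the longest 3′ UTR, of the 14 that rose 0 did, and of the 78 with a 3′ UTR that passed in neither direction 12 (15.4%) did. For the 3p seed the counts were 3 of 10, 2 of 14 and 14 of 78. Calls on both sides, CBX5 among those that fell and NUP93 among those that rose, were lost in a blocked fit without a pair. Among the genes that fell the 3′ UTR ranged from 614 (NRM) to 10815 bases (CBX5). Among those that rose it ranged from 201 (NUP205) to 5677 bases (NUP93). Most genes that fell had at least the 2006 bases of POM121C, and most that rose had fewer, with exceptions on both sides. A longer UTR gives more room for a match, and the tally was not adjusted for length. This tally was made with earlier results of these data in view, so the counts are no independent evidence.

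Among the 10 genes the matches were few. TMPO held 1 5p 7mer, in its coding sequence rather than the 3′ UTR (chr12:98547800-98547806, plus strand), and TMPO did not pass in either fit. TMPO and LEMD3 each held a 3p 7mer in the 3′ UTR, at chr12:98550323-98550329 and chr12:65247462-65247468.
TMPO 5p match, coding: agctatggaaaCCAACCAagtaaatccct
TMPO 3p match: agttttgtcgtTGCAATAaatggttttca
LEMD3 3p match: tcatgaaagttTGCAATAtagtaaatgca
LMNB1 held 1 3p 7mer or 8mer outside its 3′ UTR, and 1 of the 4 coding VRK1 transcripts held one in its 3′ UTR. The log2 fold changes of these genes, 0.07 for TMPO, 0.04 for LEMD3, 0.15 for VRK1 and 0.40 for LMNB1, spanned most of the range of the 9 genes other than BANF1.

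In the remaining lists no gene passed without the block. The 12 genes of the LINC complex, which couples the nucleus to the cytoskeleton, and the torsins had a median log2 fold change of -0.03. Their most abundant members were SUN1, at 233 ± 7.86 CPM with the mimic and 211 ± 16.0 CPM in the controls, and TOR3A, at 203 ± 22.8 and 206 ± 3.69 CPM. The 15 tested inner membrane and BAF partner genes had a median of -0.12. Among them the heterochromatin proteins CBX3 (508 ± 24.9 CPM with the mimic, 477 ± 24.0 CPM in the controls) and CBX5 (195 ± 11.1 and 241 ± 20.1 CPM) bind LBR, and CBX5 had separate groups and held 3 5p matches. With the block 2 of these 15 genes passed (13.3%, near the 11.3% of all tested genes), both as lower. They were CBX5 (-0.32 ± 0.08, edgeR adjusted p = 0.013, and 0.052 without the replicate 1 pair) and NRM (-0.70 ± 0.14, adjusted p = 0.0023). NRM encodes the inner membrane protein nurim. NRM was low, at 17.6 CPM with the mimic and 27.04 CPM in the controls, and passed in all 3 blocked fits. In the LINC and torsin list 2 of 12 genes passed with the block (16.7%, against 11.3% of all tested genes). SUN2 rose (0.41 ± 0.10, edgeR adjusted p = 0.0087) and the torsin activator TOR1AIP1 fell (-0.34 ± 0.10, adjusted p = 0.034), both in all 3 blocked fits.

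The 6 lamin processing enzymes had a median of -0.02, with NARF at 369 ± 84.8 CPM with the mimic and 395 ± 90.8 CPM in the controls and the methyltransferase ICMT at 105 ± 16.9 and 105 ± 4.36 CPM. The 16 ESCRT-III and related genes that seal the envelope had a median of 0.09. IST1 was at 150 ± 9.02 CPM with the mimic and 158 ± 6.48 CPM in the controls, and CHMP1A at 120 ± 24.7 and 107 ± 8.63 CPM. With the block 3 of the 16 passed, all as higher, where 4.57% of all tested genes passed as higher. The ATPase gene VPS4A (0.35 ± 0.09, SE) passed in all 3 blocked fits. CHMP7, the partner of LEMD2 (0.38 ± 0.11), was lost without the replicate 3 pair (0.29 ± 0.11, edgeR adjusted p = 0.078), and CHMP4B (0.30 ± 0.09) was lost without either pair.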

How the data were processed

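The authors quantified paired-end reads (average coverage 62 M) with kallisto, per the labels' protocols, on GRCh38, per the submitters' processing notes; the sources used here give no version, annotation or strand. The deposited values are estimated counts (expected counts) per symbol, whole numbers not scaled between samples; 12102 of 35615 symbols were 0 throughout.

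The analysis used edgeR 4.0.16 under R 4.3.3 (filterByExpr, TMM, quasi-likelihood test on group, Benjamini-Hochberg over 14543 genes, threshold 0.05). SE is the log2 fold change divided by the square root of F; log2 CPM used a prior count of 2. DESeq2 1.42.0 and limma 3.58.1 served as alternatives. The code was tested on simulated data. Matches were sought in GENCODE v29 transcripts with Python 3.11.15.

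The 10 genes, the 7 wider lists and the tests were chosen with earlier results of these data known. Named genes of a wider list were up to 4 past the threshold by size, else the 2 most abundant; the 5 genes most like BANF1 were those with the highest correlation. To check the pairing, each library's deviation from its group mean was compared with that of its same-numbered partner; r was 0.15, 0.16 and 0.42 over all tested genes, each over 0.1, so the replicate block is treated as pairing; replicates 1 and 2 were not clearly told apart (0.52 between scramble 1 and miR92a 2 over abundant genes, 0.37 for the replicate 1 pair). Blocked calls are given for the 10 genes and the wider lists.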

Additional observations from a re-analysis of the deposited data

How the results depend on the processing

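The BANF1 log2 fold change was 1.41 to 1.44 in the 7 alternatives that kept all libraries and 1.32 to 1.46 with each library left out in turn; it moved to 1.24 with the replicate block and no replicate 3 pair, and to 1.51 with the block and no replicate 1 pair, alternatives chosen after seeing the data. In all 15 alternatives BANF1, VRK1, EMD, LEMD2, LMNB1, LMNB2 and LBR kept a positive sign, while TMPO, LMNA and LEMD3 fell below 0 in 2, 2 and 3 of them. The replicate block called 1639 genes over the whole table, against 205 without it, and raised the called genes among the 10 to 4 and the wider envelope genes called to 24. With the block and no replicate 1 pair these counts were 1237, 3 and 16 (LEMD2 did not pass), and with the block and no replicate 3 pair 1420, 3 and 21, where LBR passed and LMNB2 and LEMD2 did not. DESeq2 called 388 genes in all. With each library left out in turn, 70 (without scramble 2) to 201 (without scramble 3) genes were called over the whole table and 1 to 5 of the wider envelope genes; the count of called genes among the 10 stayed at 1. The causes of these shifts were not tested. The fits that leave libraries out also hold fewer libraries, and the part of that was not tested either. Depth limits miR92a 1, where 35 counts of EMD, 38 of LEMD2 and 49 of VRK1 give counting errors of 16.9%, 16.2% and 14.3%.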
